A study of Danio rerio with 6 samples.

Results

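Kinesins, dyneins and tubulins are the motors and tracks of the microtubule cytoskeleton. Members were all genes whose symbol begins with kif, tuba, tubb, dync or dynl and that held at least 30 counts over the 6 libraries. Of 89 genes with such a symbol, 81 were members, out of 32520 genes in the tables. They were 46 kinesin genes (17 of axonal transport, 12 of mitosis, 8 of cilia and hedgehog signaling, and 9 others), 19 dynein genes (6 of cytoplasmic dynein 1, 4 of dynein 2 and 9 light chains) and 16 tubulin genes (11 alpha and 5 beta). Counted as kinesin genes were also kifbp, whose product binds kinesins, and kifap3a and kifap3b, for a non-motor subunit. Just inside the threshold lay kif1cb with 33 counts and kif17 with 44, and just outside it kif9 with 14 and kif28 with 11. The other 6 outside it held 6 counts or fewer, and tubb2b on chromosome 8 held 0. Exons of tubb2b overlap those of another gene, and fragments fitting several genes were left out, so its level is uncertain. A filter on low counts left 79 members for testing, all but kif17 and kif1cb.

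RNA was sequenced from cells sorted from the dissected posterior hindbrain of Tg(isl1:Kaede) zebrafish embryos. In the RA group (replicates 6, 9 and 12) embryos received 50 nM retinoic acid, dissolved in DMSO, from 24 hours post fertilization, and in the DMSO group (replicates 1, 4 and 10) the same volume of solvent. All embryos carried the transgene, were kept in 0.2 mM PTU and were taken at 38 hours post fertilization, and 4500 to 10000 Kaede-positive, DAPI-negative cells went into a library. Kaede marks whatever cells the isl1 regulatory DNA of the line drives, and the number of embryos pooled per library is not given in the sources used here. The labels do not say whether the libraries came from separate clutches, so p-values measure the spread between these libraries alone.

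Axons depend on material made in the cell body, and neurons carry vesicles, mitochondria and RNA along microtubules, outward mostly with kinesins and inward with cytoplasmic dynein 1. A different set of kinesins builds the mitotic spindle and completes cell division, though some of these, kif11, kif15 and kif23 among them, are known from mammals to act in postmitotic neurons too. Microtubules are polymers of alpha and beta tubulin, each encoded by several genes whose use differs between neurons and dividing cells. The comparison asks whether added retinoic acid, which patterns the hindbrain along its length, shifted either set in cells labelled as vagus motor neurons.

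The libraries held 15971653 to 22349857 counted fragments in RA and 20432411 to 23411427 in DMSO. All 7 cranial motor neuron markers were present, with a summed level of 3963, 4530 and 5017 CPM (counts scaled to a common library total) in RA replicates 6, 9 and 12, against 7783, 5806 and 6913 CPM in DMSO replicates 1, 4 and 10. Of these 7, the motor neuron factor tbx20 passed the test, with -1.65 on the log2 scale (SE 0.13) and an adjusted p of 0.00482 in edgeR. The other transcription factors isl1a, phox2a and phox2bb lay at -0.67 (SE 0.18), -1.02 (SE 0.21) and -0.50 (SE 0.12), short of the threshold in edgeR and past it with DESeq2, with no overlap between groups. The cholinergic genes chata, slc18a3a and slc5a7a lay at -0.06 (SE 0.23), 0.07 (SE 0.25) and 0.11 (SE 0.17) and overlapped, and the sum is carried mainly by phox2bb and isl1a. The 9 progenitor and glia markers summed to 1942, 3398 and 2207 CPM in RA, against 2808, 2852 and 2675 CPM in DMSO. Among them gfap alone passed, at 1.00 (SE 0.16, edgeR adjusted p = 0.0352). As a set these markers were split by direction, 5 higher and 4 lower, and their median was 0.04. The lowest was fabp7a, at -0.545 (SE 0.213). The 4 muscle markers summed to 801, 21.3 and 28.0 CPM in RA, against 132, 363 and 18.2 CPM in DMSO. The 5 epidermal markers summed to 234, 678 and 34.8 CPM in RA, against 310, 196 and 40.5 CPM in DMSO. The 4 erythrocyte markers reached 0.557 CPM at most in RA, where hbae1.1, hbae3 and gata1a were at 0, against 0.0844 to 43.1 CPM in DMSO. The 5 neural crest and pigment markers summed to 73.2, 192 and 112 CPM in RA, against 105, 117 and 107 CPM in DMSO. The 7 cranial sensory markers summed to 1485 to 1611 CPM in RA and 1446 to 1920 CPM in DMSO. The 5 general neuronal markers summed to 4077 to 5449 CPM in RA and 4496 to 5915 CPM in DMSO. Within each group, libraries differed by more than counting noise. The chi-square over its degrees of freedom was 47 to 76.6 between RA libraries and 17.1 to 41.7 between DMSO libraries. A comparison with counting noise cannot show whether libraries came from separate pools of cells, and each was taken as 1 replicate.

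No kinesin, dynein or tubulin gene passed an adjusted p of 0.05 between RA and DMSO (edgeR quasi-likelihood test, Benjamini-Hochberg adjustment over 17270 tested genes). Over all tested genes 0.799% passed, 0.446% higher and 0.353% lower in RA. At an unadjusted p of 0.05, 8 of the 79 tested members passed, or 10.1%, where 10.2% of all tested genes did. The 3 RA libraries did not overlap the 3 DMSO libraries in 14 members, or 17.7%, where 15.5% of all tested genes showed no overlap. DESeq2 called 2 members, or 2.53%, against 3.89% of all tested genes, and limma-voom with sample quality weights called the same 2, TUBB2B and kif26aa, where it called 2.28% of all tested genes. The members' share of these calls was thus near the background under each rule. Members were lower in RA more often than higher, 54 against 25, and their median was -0.08 on the log2 scale. Over all tested genes the median was 0.02 and 52.6% were higher. The members' lean toward lower values was not tested. DMSO replicate 1 was the highest library for 7 of 17 axonal transport kinesins and 4 of 6 cytoplasmic dynein 1 genes. It was highest for 4 of 11 alpha and 2 of 5 beta tubulins, and for 0 of 12 mitotic kinesins. With 1 library left out at a time, the tubulin median stayed negative, at -0.284 to -0.142. The cytoplasmic dynein 1 median ran from -0.14 to 0.06. The 95% intervals of the fold changes held 0 for 71 of the 79.

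**Figure D1:**
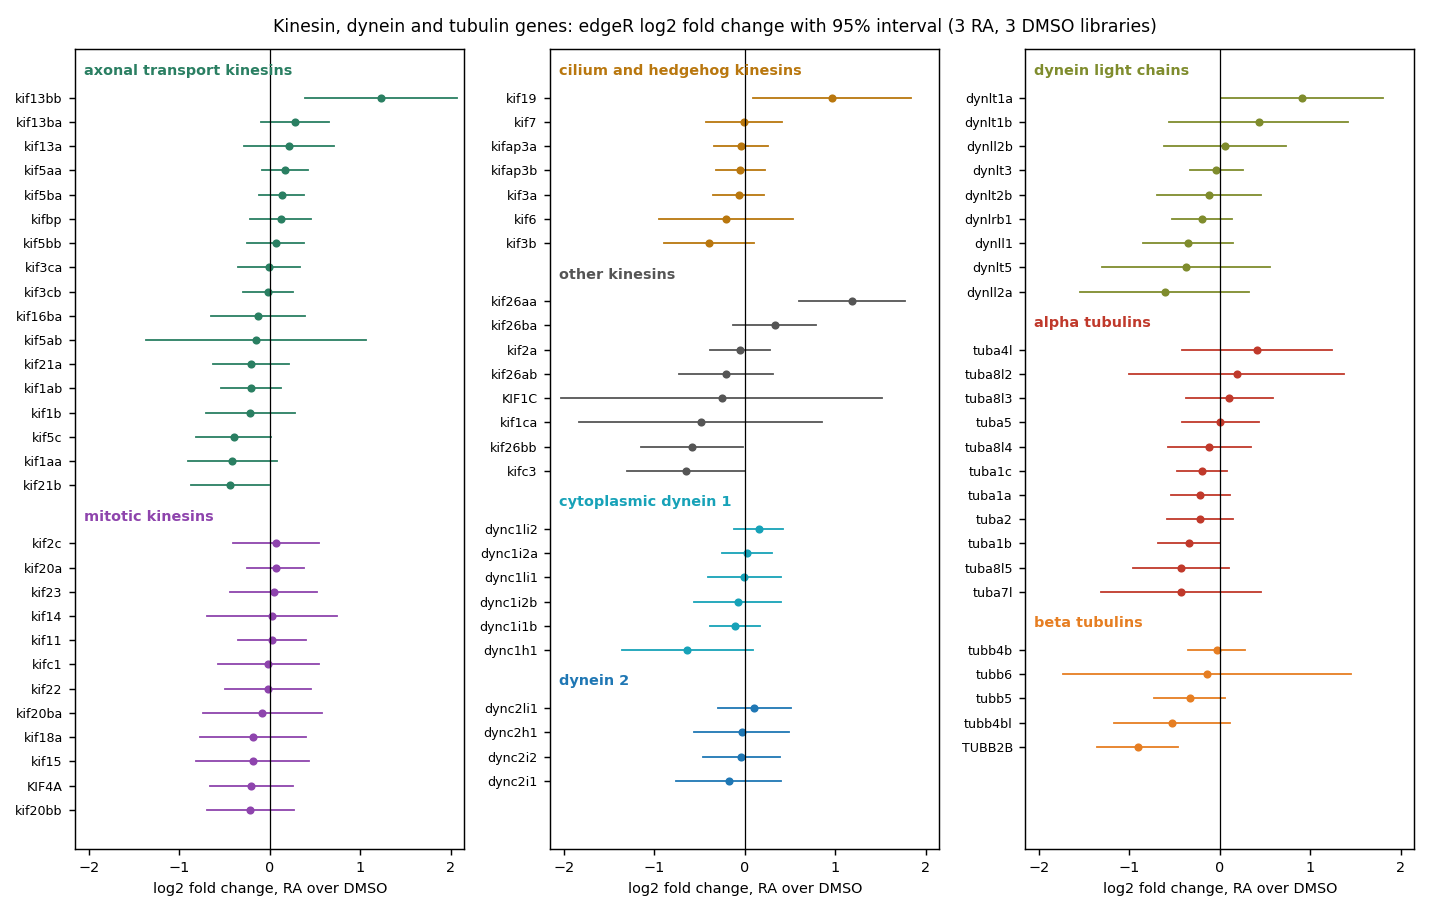
Log2 fold change (RA over DMSO, x axis) of each of the 79 tested members, grouped by role; points are edgeR estimates and bars their 95% intervals, from 3 RA and 3 DMSO libraries. Most intervals hold 0, and kif26aa at 1.18 and TUBB2B at -0.91 lie farthest from it relative to their error.

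The summed level of the axonal transport kinesins was much the same with and without retinoic acid. Of 17 tested members, 7 were higher and 10 lower in RA, none passed the test, and the median log2 fold change was -0.02. An unadjusted p under 0.05 was found for 2, or 11.8%, against 10.2% of all tested genes. The groups did not overlap in 4, or 23.5%, against 15.5% of all tested genes. These were kif5ba and kif13bb, higher in RA, and kif5c and kif21b, lower in RA. Their summed level per length was 341, 330 and 351 FPKM (CPM per kilobase of exon) in RA replicates 6, 9 and 12, against 348, 325 and 327 FPKM in DMSO replicates 1, 4 and 10. The groups overlapped, with means of 341 ± 10.4 FPKM in RA and 334 ± 12.9 FPKM in DMSO (SD, n = 3 each). The sum was carried mainly by kif5aa, kif5ba and kif5bb, so it says little about the less abundant members. It also counts kifbp, whose product binds kinesins, at 39.1 FPKM over the 6 libraries.

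Kinesin-1, the main motor of fast outward transport of mitochondria and vesicles, is encoded by the kif5 genes, and they held the 3 highest levels of the group. Gene kif5aa (ENSDARG00000098936, GRCz11 chromosome 9, 265988 to 296169) had 373, 329 and 379 CPM in RA replicates 6, 9 and 12, against 335, 303 and 325 CPM in DMSO replicates 1, 4 and 10. The groups overlapped through RA replicate 9 and DMSO replicate 1, and the log2 fold change was 0.17 (95% interval -0.09 to 0.42, edgeR adjusted p = 0.731). Next came kif5ba, with 186, 186 and 212 CPM in RA against 175, 181 and 177 CPM in DMSO. All RA libraries lay above all DMSO libraries, by a small margin, at 0.13 (95% interval -0.12 to 0.38). Its paralog kif5bb followed at 51.9 ± 6.35 FPKM in RA and 49.7 ± 4.81 FPKM in DMSO, a log2 fold change of 0.06. The exons of kif5aa overlap those of a neighboring gene on the same strand, so its count is uncertain.

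The kif5c gene, whose mammalian counterpart is enriched in neurons, was far less abundant than kif5aa, at 6.27 ± 0.546 FPKM in RA and 8.26 ± 1.30 FPKM in DMSO, and pointed the other way. It had 19.98, 22.8 and 19.4 CPM in RA replicates 6, 9 and 12, against 32.2, 25.1 and 24.5 CPM in DMSO replicates 1, 4 and 10. Every RA library lay below every DMSO library, with a log2 fold change of -0.40 (95% interval -0.81 to 0.02, edgeR adjusted p = 0.516). The ratio of kif5aa to kif5c per length was 13.4, 10.4 and 14.04 in RA, against 7.47, 8.65 and 9.52 in DMSO. It is 1 of 4 ratios computed between related members after their counts were seen, and no test was made on any. The ratio of dync1i1b to dync1i2a, another of them, was 1.98, 1.55 and 1.95 in RA, against 2.05, 1.92 and 1.99 in DMSO, and overlapped. The fifth kif5 gene, kif5ab, was nearly silent, at 0.175 FPKM over the 6 libraries.

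Kinesin-3 motors carry synaptic vesicle precursors and endosomes. Gene kif1aa, for synaptic vesicle precursors, had 69.7, 53.3 and 62.7 CPM in RA, against 108, 76.7 and 62.5 CPM in DMSO, where replicate 1 was the highest library. The groups overlapped, and its log2 fold change was -0.42 (95% interval -0.91 to 0.08). Its paralog kif1ab lay at -0.21 and kif1b, also a carrier of mitochondria and synaptic vesicle precursors, at -0.21. In contrast, kif13bb (ENSDARG00000073859, chromosome 20, 49816798 to 49889111) had the highest log2 fold change of all members. It held 56, 87 and 70 counts in RA replicates 6, 9 and 12, which is 3.49, 3.88 and 3.54 CPM, against 29, 49 and 23 counts in DMSO replicates 1, 4 and 10, which is 1.42, 2.07 and 1.15 CPM. Each RA library lay above each DMSO library, at a log2 fold change of 1.23 (95% interval 0.39 to 2.07, edgeR adjusted p = 0.232), and no alternative fit passed (adjusted p 0.0916 to 0.558). Its more abundant paralog kif13ba stood at 0.28 (SE 0.16), and kif13a at 0.21 (SE 0.22).

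Of the remaining transport kinesins, kif21b, which in mammals limits microtubule growth in neurons and carries receptors, had the lowest log2 fold change of the group. It had 56.4, 92.7 and 66.3 CPM in RA replicates 6, 9 and 12, against 104, 94.0 and 94.7 CPM in DMSO replicates 1, 4 and 10. RA replicate 9 lay just below the lowest DMSO library and the other RA libraries well below it, and the log2 fold change was -0.44 (95% interval -0.87 to -0.01, edgeR adjusted p = 0.476). The kinesin-2 subunit gene kif3cb had 127, 106 and 113 CPM in RA, against 113, 116 and 121 CPM in DMSO, at -0.02 (95% interval -0.29 to 0.25). Its paralog kif3ca lay at -0.01. Gene kifbp, which binds kinesins and is needed for axon growth in zebrafish, lay at 0.12 (SE 0.15), kif16ba, an endosomal kinesin, at -0.13 (SE 0.23), and kif21a at -0.21 (SE 0.18).

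Mitotic kinesins were well expressed in these sorted cells and did not separate the treatments. All 12 were tested, and 5 were higher and 7 lower in RA. None had groups that did not overlap, against 15.5% of all tested genes, and none had an unadjusted p under 0.05, against 10.2%. These counts rest on 12 genes and were not tested. None of the 12 passed an adjusted p of 0.05 with edgeR, DESeq2 or limma-voom. Their median log2 fold change was -0.02, the 12 values ran from -0.21 to 0.07, and every 95% interval held 0, with outer bounds of -0.82 and 0.74. Their summed level was 234, 317 and 244 FPKM in RA replicates 6, 9 and 12, against 204, 286 and 313 FPKM in DMSO replicates 1, 4 and 10. Means were 265 ± 45.2 FPKM in RA and 268 ± 56.5 FPKM in DMSO (SD, n = 3 each).

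The most abundant kinesin per length, over all roles, was kif11 (ENSDARG00000010948, chromosome 17, 19481049 to 19497006), the motor that pushes spindle poles apart. It had 275, 335 and 252 CPM in RA replicates 6, 9 and 12, against 231, 299 and 321 CPM in DMSO replicates 1, 4 and 10, and the groups overlapped widely (log2 fold change 0.02, 95% interval -0.36 to 0.40). At 77.9 ± 11.7 FPKM in RA and 76.8 ± 12.7 FPKM in DMSO, it differed from kif5aa, at 78.3 ± 5.96 FPKM in RA and 69.7 ± 3.66 FPKM in DMSO, by less than its own SD in each group. Gene kifc1, a minus-end motor that bundles spindle microtubules, had 127, 156 and 133 CPM in RA, against 87.3, 155 and 178 CPM in DMSO, a log2 fold change of -0.02. The chromosome-bound motor gene kif22 had 94.6, 157 and 107 CPM in RA, against 101, 126 and 137 CPM in DMSO, at -0.02. Gene kif23, for a motor of the central spindle in cytokinesis, had 87.8, 123 and 95.7 CPM in RA, against 72.1, 109 and 116 CPM in DMSO, at 0.04. In all of these RA replicate 9 was the highest RA library, and DMSO replicate 1 was the lowest DMSO library.

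Among the less abundant mitotic members, kif15, a second spindle-pole motor, had 42.7, 57.9 and 51.1 CPM in RA, against 34.3, 65.4 and 73.1 CPM in DMSO, at -0.19 (SE 0.27). Gene kif20bb, of cytokinesis, had 21.7, 36.6 and 29.2 CPM in RA, against 32.6, 31.8 and 37.2 CPM in DMSO, at -0.21 (SE 0.21). The chromosome-arm motor KIF4A, here named by its human counterpart, had 23.8, 27.1 and 21.6 CPM in RA, against 21.5, 31.9 and 30.3 CPM in DMSO, also at -0.21 (SE 0.20). The groups overlapped in all of these. Gene kif2c, a microtubule depolymerase at centromeres, lay at 0.07, kif20a, of cytokinesis, at 0.06, kif14, of cytokinesis, at 0.02, kif20ba at -0.08 and kif18a, which dampens chromosome movement, at -0.19. Exons of kif18a overlap mettl15 and those of kif20a overlap cdc23, each on the opposite strand, and counting ignored strand.

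The variation of the mitotic kinesins ran between libraries rather than between treatments. Each member was set against its own mean over the 6 libraries, on a log2(CPM + 0.5) scale. In RA replicate 9 and DMSO replicate 10 all 12 mitotic kinesins lay above their own means, with median deviations of 0.24 and 0.25. In RA replicate 6 none did, with a median of -0.26, and in RA replicate 12 it was 1 of 12, with a median of -0.11. In DMSO replicate 1 it was also 1 of 12, with a median of -0.30, and in DMSO replicate 4 it was 10, with a median of 0.08. DMSO replicate 1 was the lowest library for 8 of the 12. Other mitosis genes, a list of 34 that holds no kinesin of the kif symbols, ordered the libraries in the same way. Replication genes, such as mcm2 to mcm7, are part of that list. Medians of the 34 genes were -0.13, 0.21 and -0.09 in RA replicates 6, 9 and 12. In DMSO replicates 1, 4 and 10 they were -0.38, 0.12 and 0.26. The summed level of these genes was 4303, 5371 and 4253 CPM in RA, against 3251, 4902 and 5576 CPM in DMSO. None of the 34 passed the edgeR test or DESeq2, and 17 were higher and 17 lower. None had an unadjusted p under 0.05, against 10.2% of all tested genes. The largest differences were those of prc1a, a spindle midzone bundler, at -0.41 (SE 0.25), and mcm5, a replication helicase subunit, at 0.25 (SE 0.24). The axonal transport kinesins showed no such common shift, with median deviations of 0.06, 0.01 and -0.07 in RA replicates 6, 9 and 12 and 0.10, 0.004 and -0.05 in DMSO replicates 1, 4 and 10.

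**Figure D2:**
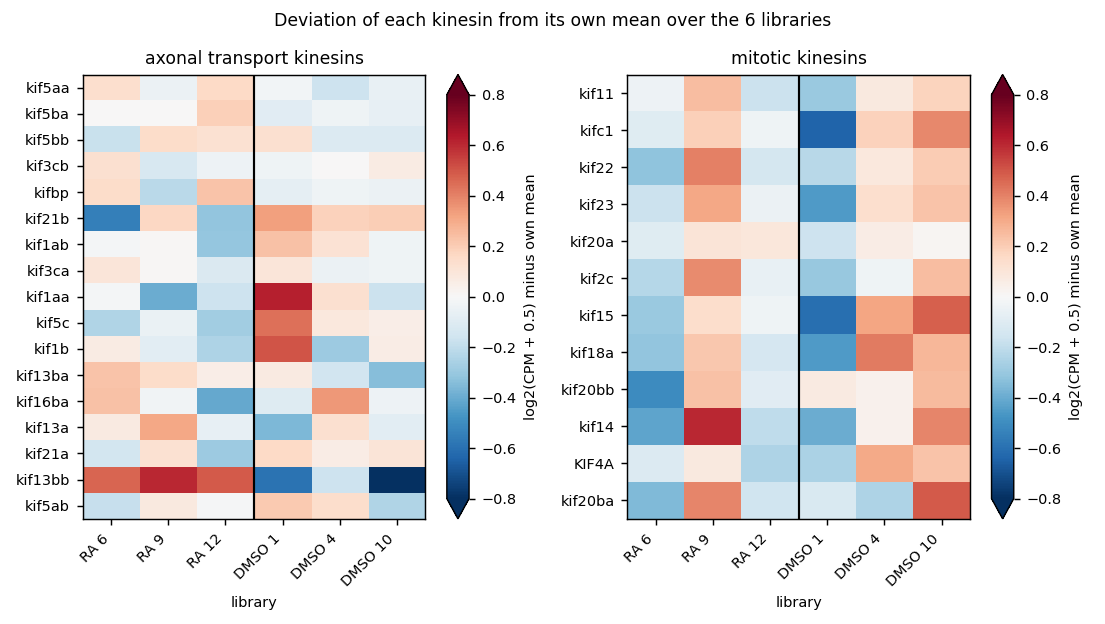
Deviation of each axonal transport kinesin (left) and mitotic kinesin (right) from its own mean over the 6 libraries, on the log2(CPM + 0.5) scale; columns are libraries, with RA left of the vertical line. All 12 mitotic kinesins are above their means in RA 9 and DMSO 10, and 8 are lowest in DMSO 1.

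The ratio of axonal transport to mitotic kinesins, as summed FPKM, was 1.46, 1.04 and 1.44 in RA replicates 6, 9 and 12, against 1.71, 1.14 and 1.05 in DMSO replicates 1, 4 and 10. Its mean was 1.31 ± 0.234 in RA and 1.30 ± 0.358 in DMSO (SD, n = 3 each), so the difference was far smaller than the spread within either group. In bulk libraries, fewer cells of a type and less RNA per cell cannot be told apart. The median log2 fold change of the mitotic kinesins turned with the libraries used, at -0.29 without RA replicate 9, -0.17 without DMSO replicate 1 and 0.10 without DMSO replicate 10, and it was -0.24 with limma-voom quality weights.

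**Figure D3:**
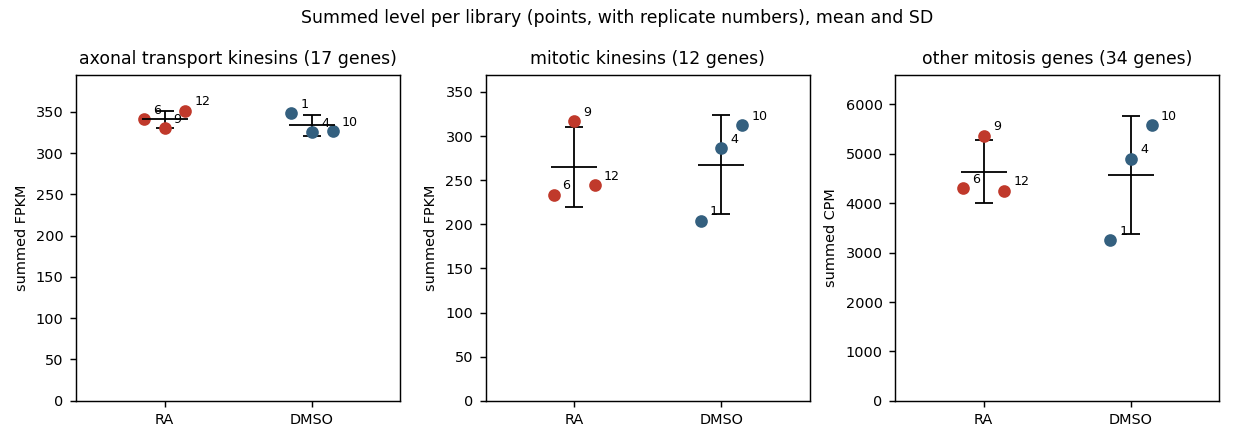
Summed level per library of 17 axonal transport kinesins and 12 mitotic kinesins (FPKM) and of 34 other mitosis genes (CPM); points are libraries with their replicate numbers, and bars are the mean and SD of 3. The axonal sums lie between 325 and 351 FPKM, while the mitotic sums range from 204 FPKM in DMSO 1 to 317 FPKM in RA 9.

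Kinesins of cilia and of hedgehog signaling were covered by 8 members, of which 7 were tested, 1 higher and 6 lower. None passed with edgeR or DESeq2, and the median was -0.05. An unadjusted p under 0.05 was found for 1, or 14.3%, against 10.2% of all tested genes. Heterotrimeric kinesin-2, which drives outward transport in cilia and also works in axons, was the abundant part of this set. Gene kif3a had 174, 150 and 172 CPM in RA replicates 6, 9 and 12, against 192, 167 and 162 CPM in DMSO replicates 1, 4 and 10, at -0.07 (95% interval -0.35 to 0.21). Of the genes of its non-motor subunit, kifap3a had 166, 139 and 150.5 CPM in RA, against 175, 143.5 and 151 CPM in DMSO, at -0.04 (95% interval -0.34 to 0.25). Its paralog kifap3b had 95.9, 113 and 108 CPM in RA, against 115, 106 and 107 CPM in DMSO, at -0.05 (95% interval -0.32 to 0.22). None of these 3 separated the groups. The partner motor kif3b had 15.2, 15 and 13.6 CPM in RA, against 23.9, 14.9 and 19.01 CPM in DMSO, at -0.40 (SE 0.22). Gene kif7, a scaffold for Gli factors in hedgehog signaling, had 29.7, 34.2 and 28.8 CPM in RA, against 24.9, 34.9 and 33.8 CPM in DMSO, at -0.01 (SE 0.18). The low-level gene kif6 lay at -0.21 (SE 0.32), with 3.30, 5.40 and 6.78 CPM in RA, against 5.03, 6.41 and 6.47 CPM in DMSO.

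Gene kif19, which in mouse sets the length of motile cilia, had 8.03, 10.2 and 8.81 CPM in RA replicates 6, 9 and 12, against 7.52, 2.87 and 3.51 CPM in DMSO replicates 1, 4 and 10. All RA libraries lay above all DMSO libraries, narrowly so for DMSO replicate 1, and the log2 fold change was 0.96 (95% interval 0.09 to 1.84, edgeR adjusted p = 0.433). Of 5 markers of ciliated cells, 4 were higher in RA and none passed. Their summed level was 31.7, 50.0 and 53.4 CPM in RA, against 32.3, 43.8 and 42.4 CPM in DMSO, with tekt1 at 1.25 (SE 0.42), ccdc40 at 0.88 (SE 0.33) and foxj1a at 0.005 (SE 0.27). The median of the 5 was 0.14 and the lowest value -0.12. The part of ciliated cells in the kif19 values was not tested.

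The remaining kinesins included the second member that DESeq2 called. Of 8 tested, 2 were higher and 6 lower, and none passed the edgeR test. An unadjusted p under 0.05 was found for 3, or 37.5%, against 10.2% of all tested genes. The groups did not overlap in 4, or 50.0%, against 15.5% of all tested genes. These shares rest on 8 genes and were not tested. Gene kif26aa (ENSDARG00000042368, chromosome 20, 27426507 to 27552885) encodes an atypical kinesin, of a family whose mouse member Kif26a restrains growth signaling in enteric neurons. It had 27.02, 16.3 and 22.02 CPM in RA replicates 6, 9 and 12, against 10.8, 10.5 and 7.47 CPM in DMSO replicates 1, 4 and 10, a mean of 21.8 ± 5.39 CPM in RA and 9.58 ± 1.83 CPM in DMSO (SD, n = 3 each). All 3 RA libraries lay above all DMSO libraries. The fold was 2.27 (95% interval of the log2 fold change 0.60 to 1.77; log2 fold change 1.18, SE 0.25), and the edgeR adjusted p was 0.0968. It passed with DESeq2 (adjusted p = 0.00135), with limma-voom quality weights (adjusted p = 0.0239) and without RA replicate 9 (edgeR adjusted p = 0.0441), and the highest adjusted p over 12 alternatives was 0.315. The 1 gene that overlaps its exons, si:dkey-22l1.1, held 5 counts over all libraries.

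The 3 paralogs of kif26aa lay at lower log2 fold changes. Gene kif26bb had 38.4, 36.0 and 32.04 CPM in RA replicates 6, 9 and 12, against 74.7, 46.2 and 38.9 CPM in DMSO replicates 1, 4 and 10, at -0.59 (95% interval -1.15 to -0.03, edgeR adjusted p = 0.463). Its RA libraries lay just below the lowest DMSO library, and DMSO replicate 1 stood well above the rest. Gene kif26ba was at 0.33 (SE 0.20) with no overlap, and kif26ab, with 17.4, 19.8 and 17.6 CPM in RA, against 16.4, 27.8 and 19.1 CPM in DMSO, was at -0.21 (SE 0.23). The minus-end motor kifc3, which acts at cell junctions and the Golgi, had 15.5, 8.75 and 16.6 CPM in RA, against 26.6, 18.3 and 19.2 CPM in DMSO, at -0.65 (95% interval -1.30 to -0.002, edgeR adjusted p = 0.486), with no overlap. Gene kif2a, a depolymerase that prunes axon branches in mouse, had 65.9, 82.0 and 70.9 CPM in RA, against 84.9, 72.9 and 69.1 CPM in DMSO, at -0.05. The genes KIF1C and kif1ca held 78 and 89 counts over the 6 libraries, too few for a close estimate (SE 0.77 and 0.59).

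Cytoplasmic dynein 1, the inward motor of axons, was level between the groups. Its 6 genes gave 2 higher and 4 lower, a median of -0.04, and none past 0.05. None had an unadjusted p under 0.05, against 10.2% of all tested genes, and DESeq2 called none. The summed level was 186, 186 and 205 FPKM in RA replicates 6, 9 and 12, against 219, 178 and 185 FPKM in DMSO replicates 1, 4 and 10. The intermediate chains bind cargo adaptors. Of these dync1i1b, whose mammalian counterpart is largely neuronal, had 165, 157 and 175 CPM in RA, against 200.5, 165 and 173 CPM in DMSO, at -0.11 (95% interval -0.39 to 0.16). The broadly expressed dync1i2a had 180.5, 219 and 194 CPM in RA, against 211, 186 and 187 CPM in DMSO, at 0.02 (95% interval -0.26 to 0.30). The light intermediate chain gene dync1li1 had 131, 112 and 148 CPM in RA, against 163, 111.5 and 118 CPM in DMSO, at -0.005 (95% interval -0.41 to 0.40). Gene dync1li2 had 173, 177 and 207 CPM in RA, against 177, 165 and 160 CPM in DMSO, at 0.15 (95% interval -0.12 to 0.43). Gene dync1i2b lay at -0.08 (SE 0.21). DMSO replicate 1 was the highest library for 4 of the 6, and without it the median of the group was 0.06.

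The heavy chain gene dync1h1, which encodes the motor itself, held only 426 counts over the 6 libraries. It had 3.05, 2.37 and 2.68 CPM in RA replicates 6, 9 and 12, against 4.69, 4.64 and 3.26 CPM in DMSO replicates 1, 4 and 10, with no overlap and a log2 fold change of -0.64 (95% interval -1.36 to 0.09, edgeR adjusted p = 0.565). Per length this was 0.510 ± 0.0647 FPKM in RA and 0.792 ± 0.153 FPKM in DMSO, far below its intermediate chains, of which dync1i1b stood at 65.3 ± 3.53 FPKM in RA and 70.7 ± 7.37 FPKM in DMSO. The annotation gives dync1h1 5295 bases of exon, against 12943 for the other heavy chain gene, dync2h1. Whether the gene model is partial was not tested, so the level of dync1h1 is uncertain.

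Dynein 2, the inward motor of cilia, was low throughout. Its 4 genes gave 1 higher and 3 lower, with a median of -0.04, log2 fold changes of -0.18 to 0.10 and 95% intervals that all held 0. None had a DESeq2 call or an unadjusted p under 0.05, where 10.2% of all tested genes had such an unadjusted p. The heavy chain gene dync2h1 had 6.10, 8.39 and 7.80 CPM in RA, against 7.37, 7.72 and 7.77 CPM in DMSO, at -0.04 (SE 0.23). The light intermediate chain gene dync2li1 had 17.4, 18.2 and 17.3 CPM in RA, against 18.6, 15.4 and 15.2 CPM in DMSO, at 0.10 (SE 0.18). Both groups overlapped in each. The intermediate chain gene dync2i1 had 16.2, 11.7 and 16.6 CPM in RA, against 19.97, 12.0 and 18.4 CPM in DMSO, at -0.18 (SE 0.25), and dync2i2 lay at -0.04 (SE 0.19), with 13.2, 11.8 and 13.6 CPM in RA, against 14.4, 12.9 and 12.4 CPM in DMSO. Exons of dync2i2 overlap setb and sptan1 and those of dync2li1 overlap CEP170, and fragments in a shared stretch were left out of both counts.

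Dynein light chains are small dimers shared by several complexes. Of 9 tested, 3 were higher and 6 lower, none passed with edgeR or DESeq2, and the median was -0.12. An unadjusted p under 0.05 was found for 1, or 11.1%, against 10.2% of all tested genes. The most abundant, dynll1, a hub protein bound by many partners, had 218, 249 and 248 CPM in RA replicates 6, 9 and 12, against 422, 240 and 250 CPM in DMSO replicates 1, 4 and 10. DMSO replicate 1 stood apart from the other 5 libraries, and the log2 fold change was -0.35 (95% interval -0.85 to 0.15). Gene dynlt3 had 196, 184 and 187 CPM in RA, against 223, 171 and 189.5 CPM in DMSO, at -0.04 (95% interval -0.33 to 0.25). Gene dynlrb1 had 97.7, 91.6 and 99.97 CPM in RA, against 131, 96.1 and 104 CPM in DMSO, at -0.20 (95% interval -0.53 to 0.14). In both, as in dynll1, the highest library was DMSO replicate 1 and the groups overlapped. Gene dynll2b, a paralog of dynll1, had 35.1, 56.0 and 61.1 CPM in RA, against 69.3, 36.8 and 40.1 CPM in DMSO, at 0.06 (95% interval -0.61 to 0.73). Gene dynlt1b had 12.3, 22.8 and 24.6 CPM in RA, against 10.3, 8.90 and 25.1 CPM in DMSO, where replicate 10 alone was high, at 0.43 (SE 0.43), and at 1.04 without that library. The low-level dynlt1a held 29, 45 and 38 counts in RA, against 21, 22 and 22 counts in DMSO, with no overlap and a log2 fold change of 0.91 (95% interval 0.01 to 1.803, edgeR adjusted p = 0.479). Gene dynll2a had 2.24, 1.116 and 2.18 CPM in RA, against 2.59, 3.38 and 2.46 CPM in DMSO, also with no overlap, at -0.61 (SE 0.41). The remaining light chains dynlt2b and dynlt5 lay at -0.12 (SE 0.25) and -0.38 (SE 0.41).

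All 5 beta tubulins were lower in RA, and none passed the edgeR threshold, while TUBB2B had an unadjusted p under 0.05 and a DESeq2 call. Their summed level was 2739, 2388 and 2748 FPKM in RA replicates 6, 9 and 12, against 3237, 3051 and 3186 FPKM in DMSO replicates 1, 4 and 10. The groups did not overlap, at 2625 ± 205 FPKM in RA and 3158 ± 95.9 FPKM in DMSO (SD, n = 3 each), a ratio of 0.831. Beta tubulin was the only role whose summed FPKM did not overlap. The alpha tubulin sum overlapped, with a ratio of RA to DMSO of 0.907. Summed beta over summed alpha tubulin was 0.911, 0.905 and 0.866 in RA, against 1.098, 0.937 and 0.907 in DMSO, and overlapped. The 15.5% of single tested genes without overlap is no background for such sums. The sum of all 81 members did not overlap either, at 14030 to 15770 CPM in RA and 16380 to 17310 CPM in DMSO. Tubulins held most of that sum. Of means of 15020 CPM in RA and 16810 CPM in DMSO, beta tubulins held 5396 and 6513 CPM. Alpha tubulins held 5332 and 5887 CPM. The axonal transport kinesins held 1326 and 1322 CPM, and the mitotic kinesins 939 and 951 CPM. The sum of the microtubule-associated and tubulin-handling genes did not overlap, at 6633 to 6762 CPM in RA and 6839 to 8552 CPM in DMSO. The beta tubulin sum was carried mainly by tubb5 and tubb4b, each of which overlapped between the groups, and it was not tested. The beta tubulin furthest from 0 relative to its error was ENSDARG00000039522 (chromosome 2, 2010277 to 2020044). It is called TUBB2B here after the human gene its table entry names. Human TUBB2B is a beta tubulin of young neurons, in which mutations disturb cortical development. Whether the chromosome 2 gene is its counterpart was not checked. Another gene, on chromosome 8, carries the symbol tubb2b, with 0 counts and with exons that overlap those of a further gene. The chromosome 2 gene had 156, 112 and 184 CPM in RA replicates 6, 9 and 12, against 250, 272 and 326 CPM in DMSO replicates 1, 4 and 10. Every RA library lay below every DMSO library, at 151 ± 36.6 CPM in RA and 283 ± 39.5 CPM in DMSO.

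The fold of TUBB2B was 0.533 (95% interval 0.390 to 0.727; log2 fold change -0.91, SE 0.20), with an edgeR adjusted p of 0.0968. It passed with DESeq2 (adjusted p = 0.00132), with limma-voom quality weights (adjusted p = 0.026) and with no filter on low counts (edgeR adjusted p = 0.0378), and the highest adjusted p over 12 alternatives was 0.311. It stayed negative in all of them, at -1.08 to -0.74. Its share of the beta tubulin level was 3.46% ± 0.618 in RA and 5.45% ± 0.772 in DMSO. Its ratio to tubb5, of the 4 ratios between related members, was 0.0681, 0.0711 and 0.0760 in RA, against 0.0886, 0.114 and 0.119 in DMSO. The groups did not overlap. The ratio of tubb5 to tubb4b was 1.35, 0.816 and 1.54 in RA, against 1.87, 1.202 and 1.49 in DMSO, and overlapped. Of the cranial motor neuron markers given above, the 4 transcription factors were also lower in all RA libraries and the 3 cholinergic genes overlapped between groups, and their part in the beta tubulin values was not tested.

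The most abundant member of all was tubb5 (ENSDARG00000037997, chromosome 16, 10318893 to 10327620), a beta tubulin of the zebrafish nervous system. It had 3233, 2215 and 3422 CPM in RA replicates 6, 9 and 12, against 3974, 3362 and 3859 CPM in DMSO replicates 1, 4 and 10. RA replicate 12 reached into the DMSO range, RA replicate 9 was the lowest, and the log2 fold change was -0.34 (95% interval -0.73 to 0.05, edgeR adjusted p = 0.578). Gene tubb4b, a broadly expressed isotype, had 1893, 2146 and 1754 CPM in RA, against 1682, 2211 and 2050 CPM in DMSO, at -0.04 (95% interval -0.35 to 0.27), and ran from -0.15 to 0.05 with 1 library left out at a time. In tubb4bl DMSO replicate 1 again stood apart, with 379, 340 and 353 CPM in RA against 793, 399 and 357 CPM in DMSO. Its log2 fold change of -0.53 (95% interval -1.17 to 0.11) was -0.09 without DMSO replicate 1. Gene tubb6 was nearly absent, at 0.674 FPKM over the 6 libraries. Its log2 fold change of -0.14 (SE 0.69) ran from -0.73 to 0.56 over 12 alternatives.

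**Figure D4:**
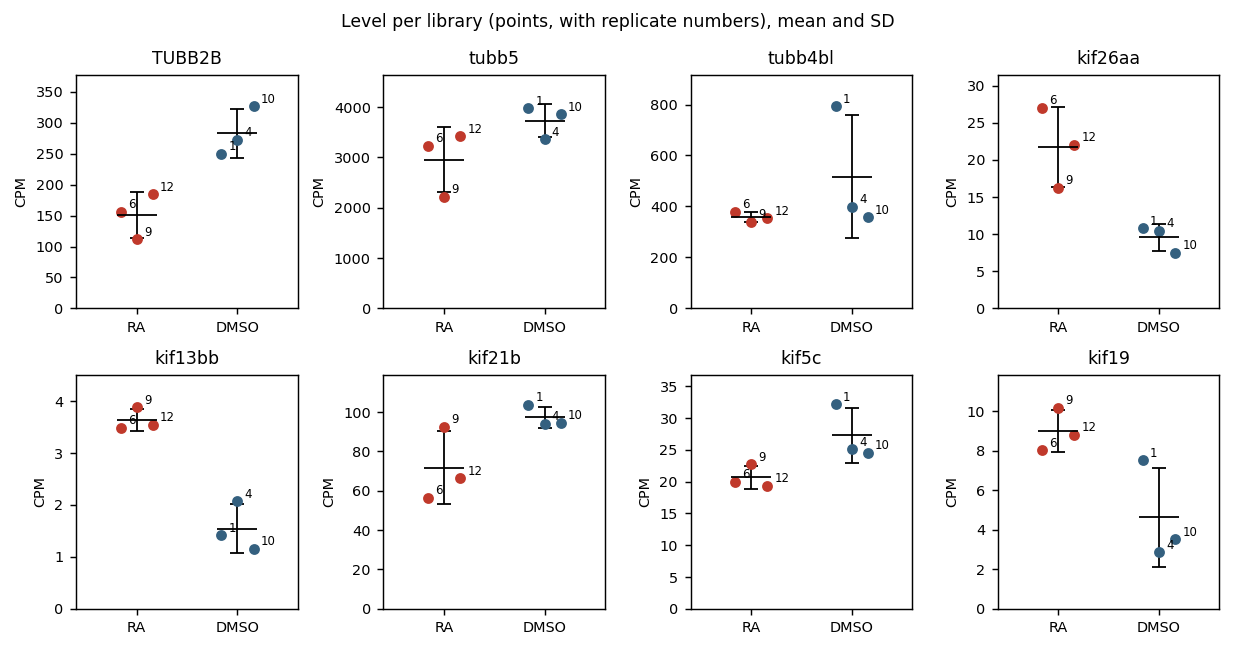
Level (CPM) in each library of 8 members, with RA left of DMSO; points carry replicate numbers, and bars are the mean and SD of 3 libraries. TUBB2B is lower and kif26aa and kif13bb are higher in every RA library, while tubb4bl is set apart by DMSO 1 alone.

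Alpha tubulins were carried mainly by 4 genes. Of 11 tested, 4 were higher and 7 lower, none passed or had a DESeq2 call, and the median was -0.20. None of the 11 had an unadjusted p under 0.05, against 10.2% of all tested genes. Their summed level was 3006, 2639 and 3173 FPKM in RA replicates 6, 9 and 12, against 2948, 3255 and 3514 FPKM in DMSO replicates 1, 4 and 10, and the groups overlapped. Gene tuba1c (chromosome 23, 35690657 to 35694461) led, with 1892, 1497 and 1907 CPM in RA, against 2043, 2041 and 2001 CPM in DMSO. All RA libraries lay below all DMSO libraries, at a log2 fold change of -0.20 (95% interval -0.48 to 0.08, edgeR adjusted p = 0.674). The neighboring gene tuba1a, whose mammalian counterpart is the main alpha tubulin of young neurons, had 949, 743 and 1003 CPM in RA, against 1097, 933 and 1106 CPM in DMSO, at -0.22 (95% interval -0.54 to 0.11). The third gene of that cluster on chromosome 23, tuba1b, lay at -0.34 (95% interval -0.69 to 0.004).

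Genes tuba8l4, tuba5 and tuba8l3 were lowest in DMSO replicate 1, as were 8 of the 12 mitotic kinesins. The highest library was DMSO replicate 10 for tuba8l4 and tuba8l3, and DMSO replicate 4 for tuba5. Gene tuba8l4 had 932, 826 and 1007 CPM in RA, against 708, 1040 and 1249 CPM in DMSO. For tuba5 the values were 913, 1059 and 997 CPM in RA, against 706, 1170 and 1086 CPM in DMSO. The log2 fold changes of tuba8l4 and tuba5 were -0.12 (95% interval -0.57 to 0.34) and 0.003 (95% interval -0.42 to 0.43). Gene tuba8l3 lay at 0.10 (SE 0.21) and tuba2 at -0.22 (SE 0.16). Among low-level genes, tuba4l had 10.7, 4.69 and 12.8 CPM in RA, against 6.59, 6.92 and 7.57 CPM in DMSO, at 0.41 (SE 0.36). Gene tuba8l5 had 9.59, 6.65 and 7.19 CPM in RA, against 11.6, 9.58 and 10.4 CPM in DMSO, where 1 RA library reached into the DMSO range, at -0.43 (SE 0.23). Gene tuba7l had 1.62, 1.43 and 1.77 CPM in RA, against 1.76, 1.94 and 2.81 CPM in DMSO, at -0.43 (SE 0.39), and tuba8l2 lay at 0.19 (SE 0.52).

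The shares of the 4 most abundant alpha and 2 most abundant beta tubulin genes differed between groups by no more than the larger SD. Among the others, the shares of TUBB2B (given above), tuba8l3, tuba8l5 and tuba7l differed by more than that. The share of tuba8l3 was 6.23% ± 0.537 in RA and 5.24% ± 0.932 in DMSO. The low-level tuba8l5 had 0.175% ± 0.0314 in RA and 0.215% ± 0.0367 in DMSO. Gene tuba7l, barely past the larger SD, had 0.03077% ± 0.0006025 in RA and 0.0374% ± 0.00661 in DMSO. Of the alpha tubulin level, tuba1c took 30.4% ± 1.58 in RA and 31.9% ± 3.14 in DMSO, tuba1a 19.8% ± 1.29 in RA and 21.1% ± 2.84 in DMSO, tuba5 18.8% ± 2.98 in RA and 16.8% ± 3.34 in DMSO, and tuba8l4 18.3% ± 0.212 in RA and 17.9% ± 3.45 in DMSO. Of the beta tubulin level, tubb5 took 48.2% ± 7.25 in RA and 50.9% ± 2.95 in DMSO, and tubb4b 40.5% ± 7.50 in RA and 34.3% ± 5.64 in DMSO (SD, n = 3 each). RA replicate 9 differed from the other RA libraries, with tubb4b at 49.0% and tubb5 at 40.0%. Tubulin genes are alike in sequence, and fragments that fit several genes were left out of the counts, so these levels and shares are uncertain between close copies.

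**Figure D5:**
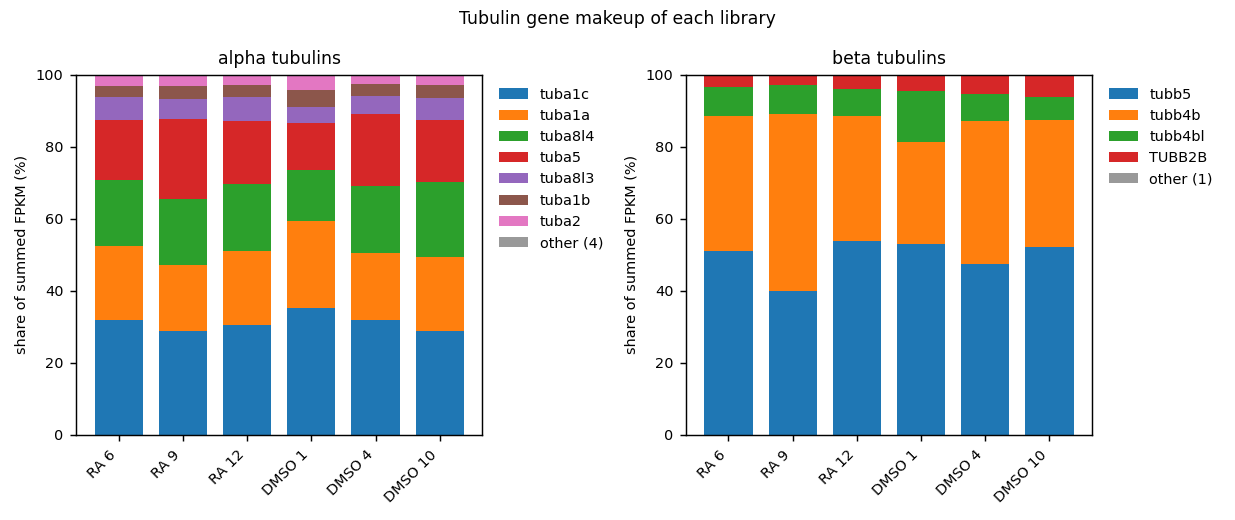
Share of the summed alpha (left) and beta (right) tubulin level, in FPKM, taken by each gene in each library, RA libraries first; genes with a mean share under 1% are pooled in gray. Gene tubb5 takes 40.0% to 53.7% of beta tubulin in RA and 47.5% to 52.9% in DMSO, and tuba1c 28.8% to 31.9% of alpha tubulin in RA and 28.9% to 35.1% in DMSO.

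Partner genes of the motors were covered in part by lists outside the members, and none of the genes found passed the edgeR test. Listed symbols without a single match among the gene names were left out, klc1a, klc1b, klc2, dcx and map4 among them. This left 16 of 21 kinesin light chains and cargo adapters and 20 of 25 dynactin and dynein regulators. Of the microtubule-associated and tubulin-handling genes it left 37 of 44. Of 16 tested kinesin light chains and cargo adapters, 7 were higher and 9 lower, with a median of -0.06. At an unadjusted p of 0.05, 2 passed, or 12.5%, against 10.2% of all tested genes, and DESeq2 called none. The largest differences were those of rhot1b, which tethers mitochondria to motors, at -0.79 (SE 0.23), and arl8ba, a lysosomal adapter GTPase, at 0.40 (SE 0.15). Of 20 tested dynactin and dynein regulators, 9 were higher and 11 lower, with a median of -0.01, none at an unadjusted p of 0.05 and none with DESeq2, and the largest were the dynactin subunits dctn4 at 0.73 (SE 0.54) and dctn1b at -0.28 (SE 0.13). Libraries of dctn4 were split within both groups, at 30.4, 108 and 84.9 CPM in RA, against 34.1, 22.5 and 78.5 CPM in DMSO, and its log2 fold change was 0.35 without RA replicate 9 and 1.39 without DMSO replicate 10. Of 37 tested microtubule-associated and tubulin-handling genes, 13 were higher and 24 lower, with a median of -0.04. At an unadjusted p of 0.05, 5 passed, or 13.5%, against 10.2% of all tested genes. DESeq2 called 2, or 5.41%, against 3.89% of all tested genes. The largest differences there were tppp3, a tubulin polymerization gene, at 1.75 (SE 0.59), and map1ab, at 0.70 (SE 0.25). The groups of map1ab overlapped. Its paralog map1aa went the other way, at -0.48 (SE 0.14) with no overlap. The DESeq2 calls were map1b and dclk1a, the latter at -0.46 (SE 0.13, DESeq2 adjusted p = 0.032) with no overlap. Genes map1aa and dclk1a were named after their values were seen. The value of tppp3 rested on RA replicate 6, with 14.8, 5.27 and 2.63 CPM in RA, against 2.69, 2.03 and 2.01 CPM in DMSO, and was 0.82 without that library. The lowest adjusted p was that of map1b, a microtubule-binding protein of growing axons, named after its values were seen. It had 545, 521 and 570 CPM in RA replicates 6, 9 and 12, against 870, 742 and 877 CPM in DMSO replicates 1, 4 and 10, a log2 fold change of -0.61 (SE 0.11) with no overlap and an edgeR adjusted p of 0.0599, and it passed with DESeq2 (adjusted p = 0.000326).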

How the data were processed

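Each library has a deposited table of raw counts by gene. Per the file headers, the authors counted read pairs with featureCounts 1.6.0, ignoring strand, against the GRCz11 annotation of Ensembl release 95. The submitters' processing notes name STAR 2.5.2a, Subread 1.5.0 and bcl2fastq 1.8.4. Fragments fitting several genes or places were left out, and fragments of either strand count alike.

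Symbols came from an identifier table. An entry in capitals took the RefSeq symbol of that name (or with an added a or b, or as a synonym) if 1 free gene on the same chromosome carried it (46 members); for 31 the entry was itself a RefSeq symbol, and 4 stayed as given. RefSeq (assembly GRCz12tu) served for names alone. Exons of 13 members overlap another gene's.

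Tests used edgeR 4.0.16 in R 4.3.3: filterByExpr, TMM scaling, a quasi-likelihood fit of treatment, two-sided p-values adjusted over 17270 tested genes, and a threshold of 0.05. SE was the fold change over the square root of F. Intervals are 95%. CPM and FPKM use the TMM-scaled total of tested genes and the exon length in the tables. A library's 3 counts are 0.127 to 0.187 CPM. DESeq2 1.42.0 and limma 3.58.1 were alternatives. The limma-voom quality weights of RA replicates 6, 9 and 12 were 1.95, 0.39 and 0.872. Those of DMSO replicates 1, 4 and 10 were 0.519, 2.02 and 1.44. Lists carry no test of their own.

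Members, roles and lists were chosen with earlier results of these data known. Named members were those past 0.05 and, in each role, the 4 with the highest level per length and the 3 with the largest absolute log2 fold change where the higher group averaged 20 counts or more. The others are given with 1 value each, except kif5c, chosen after its values were seen. Of the partner lists, the 2 genes with the largest change were named, and map1b, map1aa and dclk1a after their values were seen. Listed symbols without a single match were left out. In the list of other mitosis genes 34 of 35 symbols had a match, and 4 of 5 in the muscle and the erythrocyte markers. Planned comparisons of protein and promoter sequence were not made, and these sequences are not analysed here.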

Additional observations from a re-analysis of the deposited data

How the results depend on the processing

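No paired analysis was made. The labels do not say whether RA and DMSO libraries were collected in pairs, and unshared replicate numbers cannot show it. Over all tested genes, edgeR called 276 genes with no filter on low counts, DESeq2 called 671, limma-voom with quality weights 394, and edgeR with 1 library left out 9 to 325. Members called numbered 1 with no filter (TUBB2B), 2 with DESeq2, 2 with limma-voom, and 0 to 1 with a library left out (kif26aa, without RA replicate 9), against 0 with the other scalings and the robust dispersion. The median log2 fold change of the cytoplasmic dynein 1 genes ran from -0.14 to 0.06 with 1 library left out, turning positive without DMSO replicate 1. That of the mitotic kinesins ran from -0.29 to 0.10. Of 53 named members, 29 kept their sign in all 12 alternatives and 24 did not, and the cause was not tested.

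With limma-voom, the log2 fold changes that changed sign were those of dync1i2a (-0.004), dync1li1 (0.15), dync2i1 (0.073), dync2i2 (0.022), dynlt3 (0.065), kif11 (-0.11), kif23 (-0.17), kif3a (0.017), kif3cb (0.029), kifap3a (0.076) and tuba5 (-0.16). With DESeq2, and with its size factors in edgeR, tuba5 was at -0.002. With library size alone dync1li1 was at 0.009, and with no filter tuba5 was at -0.018 and kif11 at -0.00. With 1 library left out, the ranges that crossed 0 were dync1i2a -0.062 to 0.085, dync1li1 -0.11 to 0.17, dync2h1 -0.14 to 0.087, dync2i2 -0.087 to 0.014, dynll2b -0.11 to 0.39, dynlt3 -0.13 to 0.063, kif11 -0.12 to 0.11, kif15 -0.46 to 0.014, kif22 -0.27 to 0.12, kif23 -0.15 to 0.17, kif26ab -0.37 to 0.040, kif2a -0.15 to 0.031, kif3a -0.12 to 0.000, kif3cb -0.095 to 0.031, kif5bb -0.002 to 0.16, kif6 -0.45 to 0.029, kif7 -0.16 to 0.073, kifap3a -0.11 to 0.040, kifap3b -0.11 to 0.016, kifc1 -0.27 to 0.19, tuba5 -0.20 to 0.14, tuba8l4 -0.32 to 0.072 and tubb4b -0.15 to 0.048.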
